A study of Mus musculus with 6 samples.

Results

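Secreted modulators of the Wnt pathway were followed in cultured mouse retinal cells that had been transfected with small RNAs. The 8 genes are Dkk3, Dkk2, Sfrp1, Sfrp2, Sfrp5, Wif1, Wisp1 and Wisp2. They were chosen with earlier results of these data known. Their rows were taken by symbol from the 27998 genes of the count matrices, and each symbol matched 1 row. All 8 are reported whatever their values. Retinas had been dissociated with papain and the cells grown in neurobasal medium with serum, N2, glutamine and EGF, which gives cultures named for Müller glia, whose processes span the retina. The cultures then received, by Lipofectamine, the miR-25 mimic (an RNA that adds miR-25 activity), the let-7 antagomiR (an RNA that blocks let-7 miRNAs), both of these (the double combination), the miR-124 mimic, all 3 RNAs (the triple combination), or a control mimic with a control antagomiR. Every RNA was at 500 nM, and mouse strain, age and genotype are not given in the labels. Each treatment had 1 single-cell library, so no difference below has a replicate check and no test between treatments was made. Intervals are 95% intervals for counting error only.

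Wnt proteins are secreted signals that bind Frizzled receptors with the co-receptors Lrp5 and Lrp6 and stabilise beta-catenin. Dickkopf proteins such as Dkk2 bind the co-receptors. Secreted Frizzled-related proteins (Sfrp1, Sfrp2, Sfrp5) and Wif1 bind Wnt proteins outside the cell. Dkk3 is a divergent Dickkopf protein that is well known in Müller glia. Wisp1 and Wisp2 belong to the CCN family of matrix-associated proteins and were named for induction by Wnt1. Wnt signalling is known in retinal glia for its part in proliferation after injury.

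Sites were sought for miR-25 and let-7 only. No miR-124 sequence was available, so its sites were not searched in any of the genes. Of the 8 genes, Dkk3 and Dkk2 carry sites for miR-25 or let-7 in the 3′ UTR, so those sequences are shown beside the miRNAs. The miRNA sequences are RefSeq's, build GRCm38.p6, with the seed (bases 2 to 8) in capitals, and the 3p arm of miR-25 and let-7a were assumed because the labels give no arm or family member. miR-25-3p lies at chr5:138165332-138165353 on the minus strand and let-7a-5p at chr13:48538239-48538260 on the minus strand.
miR-25-3p: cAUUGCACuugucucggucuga
let-7a-5p: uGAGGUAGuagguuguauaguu
The sites are read from the GRCm38 genome with its GENCODE annotation and written as the mRNA runs, with the letters that pair with the seed, and the A that follows them in an 8-mer, in capitals.
Dkk3 site for miR-25: cccagctgagtcactggtagatGTGCAATA
Dkk3 site for let-7: attcatccctgtgtttcagctcCTACCTCA
Dkk2 first site for miR-25: tcgagctggagccattaatcatGTGCAATA
Dkk2 second site for miR-25: ttgctctcatgcaggtaagctggGTGCAAT
The Dkk3 stretches lie at chr7:112118174-112118203 and chr7:112117734-112117763 on the minus strand, and their sites start at bases 30 and 470 of a 3′ UTR of 2194 bases. The Dkk2 stretches lie at chr3:132178897-132178926 and chr3:132179246-132179275 on the plus strand, and their sites start at bases 799 and 1149 of a 3′ UTR of 2184 bases. GTGCAAT or TGCAATA (miR-25) was found in the 3′ UTR of 12.7% of 21000 annotated genes and CTACCTC or TACCTCA (let-7) in 14.9%, on the sense strand, and each pair of motifs overlaps within an 8-mer. The 3′ UTRs of the other 6 genes, 709 to 3747 bases long, held none of these letters. In GRCm38 the transcripts used lie at chr7:112116017-112159057 (Dkk3, minus strand), chr3:132085292-132180304 (Dkk2, plus), chr8:23411502-23449632 (Sfrp1, plus), chr3:83766321-83774316 (Sfrp2, plus), chr19:42197971-42202252 (Sfrp5, minus), chr10:121033960-121100650 (Wif1, plus), chr15:66891320-66923201 (Wisp1, plus) and chr2:163820889-163833146 (Wisp2, plus). A match is a description of the sequence and does not show that a site is used.

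The libraries held 21561243 UMIs (unique RNA molecules counted) with miR-25 mimic and 21001735 with let-7 antagomiR. The part of the double combination that could be read held 11804176. There were 15059804 labelled miR-124, 22705495 labelled triple combination and 23124374 in the control. Of these, 2725 to 5156 cells per library were kept, with median depths of 3484 to 5872 UMIs, and any pair of libraries shared 9 to 33 cell barcodes. Cells that carried Müller glia markers (called Müller-like) made up 56.3% with miR-25 mimic, 48.8% with let-7 antagomiR, 1362 of 2725 cells in the double combination, 34.5% labelled miR-124, 54.4% labelled triple combination and 29.3% of the control. Fibroblast-like cells made up 49.2% of the control, so the labelled cell type did not make up most of the control library. The other cells were astrocyte-like, microglia-like, neuron- or progenitor-like, pigment-cell-like and cycling cells, and groups led by Actg2 and Rgs5, by Bglap2 and Miat, and by Mgp and Col8a2, which were left unnamed.

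Genes with miRNA sites gave a check on the labels, and these site genes include Dkk3. In Müller-like cells the 1145 genes with a miR-25 site had a mean log2 ratio below that of the 5858 without, by -0.097 with miR-25 mimic against control and by -0.10 in the double combination against let-7 antagomiR, after trends on UTR length, GC and level were removed. Against control this difference was 0.027 for the library labelled miR-124, and 0.035 for the library labelled triple combination, although the label of the second names miR-25. Genes with a let-7 site stood 0.063 higher with let-7 antagomiR against control and 0.079 higher for the library labelled miR-124, whose label names no let-7 inhibitor, while the library labelled triple combination, whose label does, had -0.0018. Whether these 2 libraries hold the treatments their labels name was not settled by these values, so they are called by their labels throughout, and a ratio that names one describes the labelled library only. They also stand apart in their cells. A cluster led by Rlbp1 and Car14, with 16 of 21 Müller glia markers raised at least 2-fold over the median cluster, held 660 of 1217 Müller-like cells labelled miR-124 and 1734 of 2221 labelled triple combination. In the other 4 libraries it held at most 18. Their Müller-like cells lay in clusters led by Lcn2 (15 of 21 markers) and by Grem1 (6 of 21). At a finer clustering (resolution 1.0) a cluster of 2491 cells, with Grem1 among its leading genes, had 2 of 21 markers raised. That cluster was left unnamed and so was not Müller-like at that setting. The unnamed Bglap2 and Miat-led cells had 10 of 21 Müller glia markers and 7 of 18 neuron or progenitor markers raised. The Lcn2-led cluster held 2109 cells with miR-25 mimic, 930 with let-7 antagomiR, 589 in the double combination, 437 labelled miR-124, 389 labelled triple combination and 877 in the control. The Grem1-led cluster held 775 with miR-25 mimic, 559 with let-7 antagomiR, 771 in the double combination, 120 labelled miR-124, 98 labelled triple combination and 408 in the control.

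Levels below are UMI counts summed over the cells of a class and scaled to the same total for every sum (CPM). Log2 ratios are of CPM + 5 and use the 7121 genes that reached 20 CPM in the Müller-like cells of any library. Dkk3, Sfrp1, Wisp1 and Wisp2 passed this filter, and Dkk2, Sfrp2, Sfrp5 and Wif1 did not. A gene is counted as past the fold where its ratio is at least 1.5-fold either way.

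**Figure D1:**
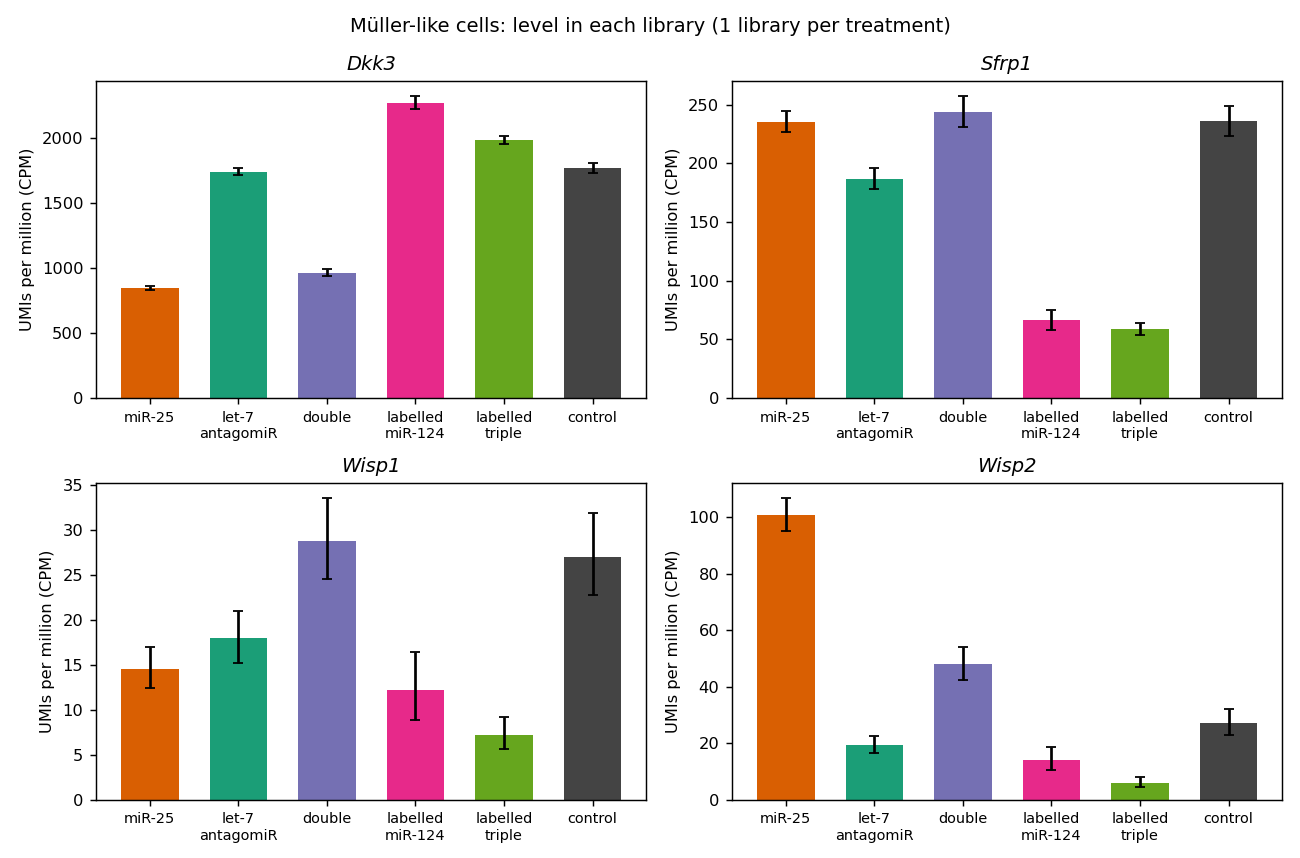
Level (CPM) of Dkk3, Sfrp1, Wisp1 and Wisp2 in Müller-like cells of the 6 libraries, as bars from 0 with 95% Poisson intervals for counting error. Dkk3 is lowest with miR-25 mimic (846 CPM) and in the double combination (966 CPM), Sfrp1 is lowest labelled miR-124 (66.3 CPM) and labelled triple combination (58.6 CPM), and Wisp2 is highest with miR-25 mimic (101 CPM).

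Dkk3 was the gene of the 8 with a miR-25 site and a high level in Müller-like cells. It was lower than control with miR-25 mimic and in the double combination, but not in the library labelled triple combination. Its level in Müller-like cells was 846 CPM (interval 830 to 864) with miR-25 mimic, 1743 CPM (1715 to 1770) with let-7 antagomiR, 966 CPM (940 to 992) in the double combination, 2275 CPM (2226 to 2326) labelled miR-124, 1987 CPM (1958 to 2016) labelled triple combination and 1771 CPM (1735 to 1807) in the control. The let-7 antagomiR and control libraries overlapped in their intervals, and every other neighbour in the order was apart by more than counting error. The ratio was 0.478 (0.465 to 0.492) with miR-25 mimic against control, a log2 ratio of -1.06. The double combination against let-7 antagomiR, which shares no library with that contrast, had a ratio of 0.554 (0.537 to 0.572) and a log2 ratio of -0.85. The library labelled triple combination had a ratio to control of 1.12 (1.09 to 1.15), although its label also names the miR-25 mimic.

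Dkk3 also carries a let-7 site, and its values with let-7 antagomiR stayed near those without. The ratio of let-7 antagomiR to control was 0.984 (0.959 to 1.01). That of the double combination to miR-25 mimic was 1.14, a log2 ratio of 0.19, and neither is past 1.5-fold. In the contrasts labelled for miR-124, the library labelled miR-124 stood at a log2 ratio of 0.36 to control, and the library labelled triple combination at 1.04 to the double combination. The second of these sets a library with a higher miR-25 site-gene value (0.14 log2) against the double combination.

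The lower Dkk3 showed as more single cells with few UMIs, and it was seen within the Lcn2-led and Grem1-led clusters. The Rlbp1 and Car14-led cluster held too few cells of the miR-25 mimic, let-7 antagomiR, double combination and control libraries for this comparison. With every cell thinned to 2000 UMIs, 24.1% of Müller-like cells with miR-25 mimic had no Dkk3 UMI, 4.80% with let-7 antagomiR, 18.2% in the double combination, 3.86% labelled miR-124, 5.81% labelled triple combination and 5.03% of the control. The median thinned cell had 1 UMI with miR-25 mimic, 2 in the double combination, 4 labelled miR-124, and 3 with let-7 antagomiR, labelled triple combination and in the control. Without thinning, the share of cells with a Dkk3 UMI was 90.4% with miR-25 mimic, 98.9% with let-7 antagomiR, 93.5% in the double combination and 97.9% to 98.5% in the other 3 libraries. Cells with few Dkk3 UMIs thus made up more of the miR-25 mimic and double combination libraries. At medians of 1 and 2 UMIs per thinned cell, a separate group of cells without Dkk3 could not be told apart. Microglia-like cells should lack Dkk3 and were taken as a guide to free RNA. They had 11.3 to 76.6 CPM and a thinned share of 2.99% to 7.22%. The median depth of Müller-like cells was 2652 to 5621.5 UMIs and that of microglia-like cells 3972 to 7013 UMIs.

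**Figure D2:**
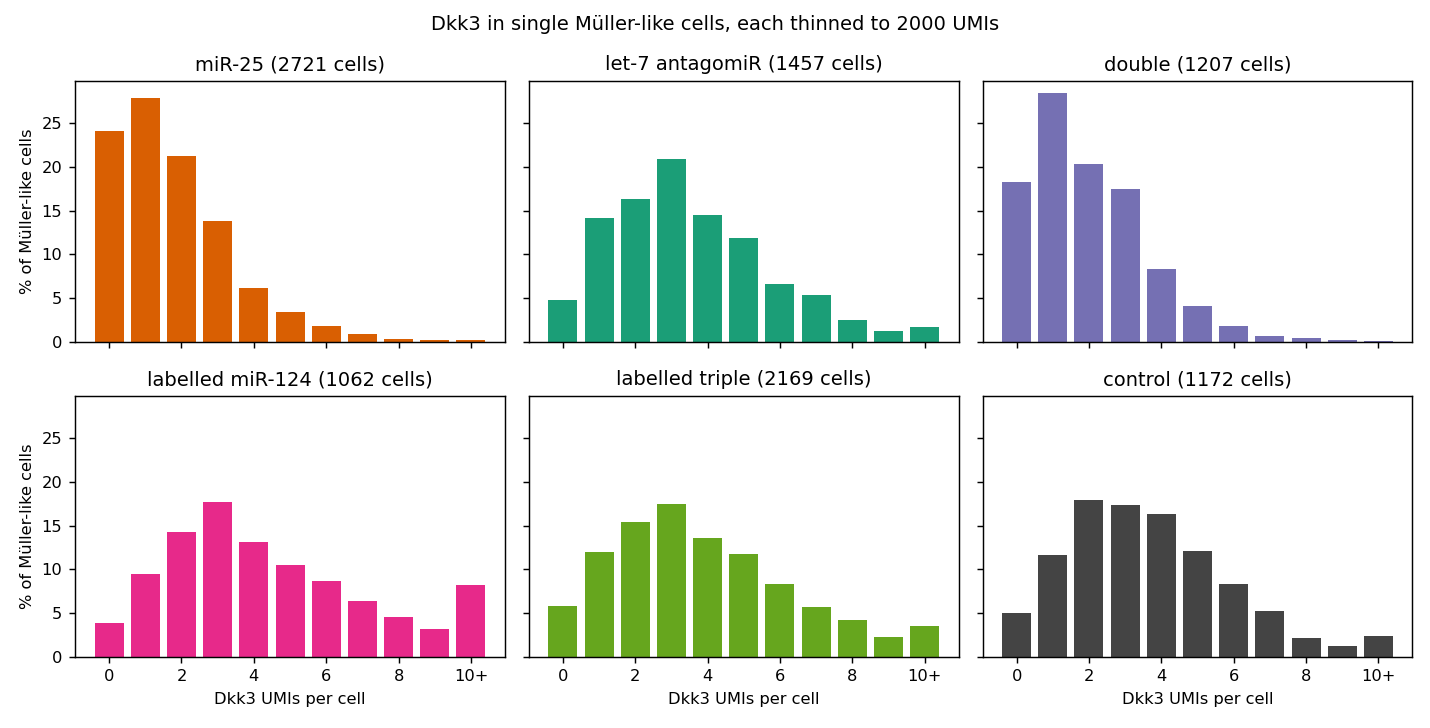
Share of Müller-like cells (percent, vertical axis) by number of Dkk3 UMIs per cell (0 to 10 or more) after thinning each cell to 2000 UMIs, 1 panel per library. Cells with 0 UMIs make up 24.1% with miR-25 mimic and 18.2% in the double combination, against 5.03% in the control.

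Within the Lcn2-led cluster the level of Dkk3 was 923 CPM with miR-25 mimic, 1984 CPM with let-7 antagomiR, 1163 CPM in the double combination and 1953 CPM in the control. The Grem1-led cluster had 658 CPM with miR-25 mimic, 1428 CPM with let-7 antagomiR, 849 CPM in the double combination and 1458 CPM in the control. The miR-25 mimic library was thus lower than control within both clusters, with log2 ratios of -1.08 and -1.14, and the double combination was lower than let-7 antagomiR by -0.77 and -0.75. For the library labelled triple combination against control the values were near 0, at -0.12 (Lcn2-led) and -0.07 (Grem1-led). The Rlbp1 and Car14-led cluster had 2567 CPM labelled miR-124 and 2089 CPM labelled triple combination.

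Dkk3 differed between cell classes, and the ratio differed with them. Astrocyte-like cells had 500 CPM (463 to 540) with miR-25 mimic, 892 CPM (835 to 951) with let-7 antagomiR, 421 CPM (378 to 467) in the double combination, 1288 CPM (1220 to 1358) labelled miR-124, 1078 CPM (1030 to 1129) labelled triple combination and 684 CPM (639 to 731) in the control. Ratios in astrocyte-like cells were 0.731 (0.660 to 0.810) with miR-25 mimic against control and 0.472 (0.417 to 0.534) in the double combination against let-7 antagomiR. The Actg2 and Rgs5-led cells, which carried 9 of 11 pericyte markers and 8 of 14 fibroblast markers, had 199 to 301 CPM in the 6 libraries and ratios of 1.02 (0.895 to 1.16) and 1.04 (0.860 to 1.25) in the same contrasts. Fibroblast-like cells, at 24.0 to 46.1 CPM, stood within the range of microglia-like cells. For all genes with miR-25 sites, set against genes without, the mean log2 difference was -0.075 and -0.066 in astrocyte-like cells, -0.047 and 0.0041 in Actg2 and Rgs5-led cells and -0.017 and -0.020 in fibroblast-like cells, for the same pair of contrasts. A difference in ratio between classes was not tested.

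**Figure D3:**
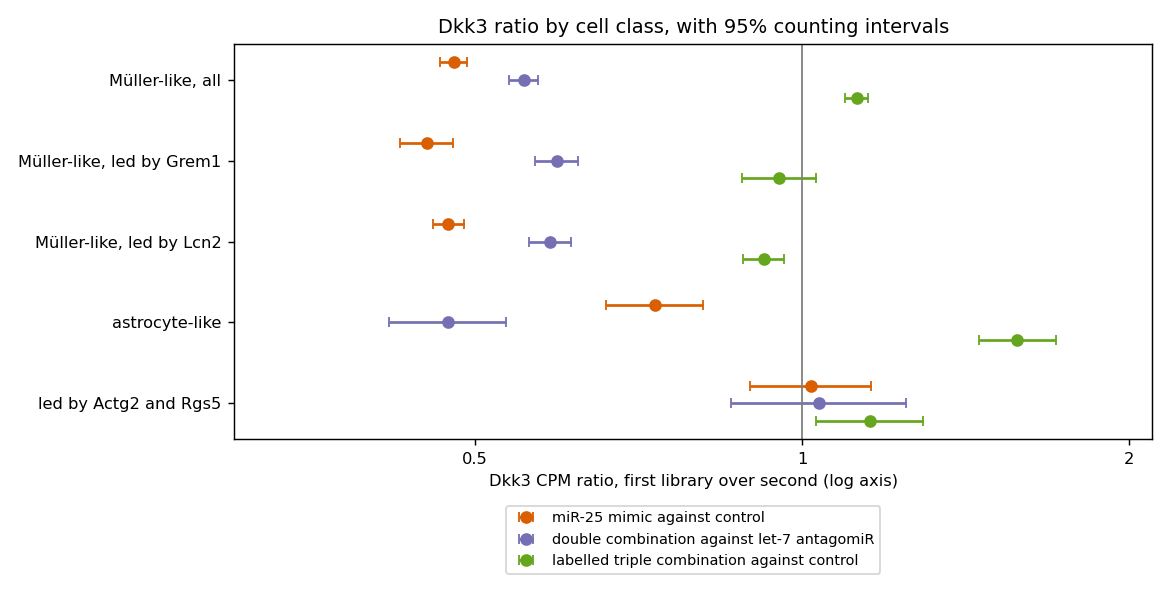
Ratio of Dkk3 CPM with 95% counting intervals in 3 contrasts (miR-25 mimic against control, double combination against let-7 antagomiR, library labelled triple combination against control), for all Müller-like cells, the Grem1-led and Lcn2-led clusters, astrocyte-like cells and Actg2 and Rgs5-led cells. In Müller-like cells the ratio is 0.478 and 0.554 in the first pair of contrasts and 1.12 in the third, and in Actg2 and Rgs5-led cells it is 1.02 and 1.04 in the first pair.

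Over all kept cells with no class, Dkk3 stood at 558 CPM with miR-25 mimic, 922 CPM with let-7 antagomiR, 584 CPM in the double combination, 806 CPM labelled miR-124, 1004 CPM labelled triple combination and 562 CPM in the control. The miR-25 mimic and control libraries were thus level when classes were pooled. Müller-like cells made up 56.3% of the kept cells with miR-25 mimic and 29.3% in the control, and the part of this share in the pooled levels was not tested.

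Dkk2, the Dickkopf protein with a pair of miR-25 sites, was a gene of the fibroblast-like cells, where it is among the leading genes of a cluster and so helped to define it. Its level in fibroblast-like cells was 248 CPM (234 to 263) with miR-25 mimic, 267 CPM (254 to 281) with let-7 antagomiR, 299 CPM (279 to 319) in the double combination, 370 CPM (355 to 386) labelled miR-124, 322 CPM (308 to 336) labelled triple combination and 344 CPM (333 to 355) in the control. The log2 ratio was -0.46 with miR-25 mimic against control and 0.16 in the double combination against let-7 antagomiR, so it was lower in the first contrast, higher in the second and past 1.5-fold in neither. Actg2 and Rgs5-led cells had 92.0 CPM with miR-25 mimic, 108 CPM with let-7 antagomiR, 149 CPM in the double combination, 122 CPM labelled miR-124, 95.2 CPM labelled triple combination and 98.8 CPM in the control. In Müller-like cells Dkk2 had 0.80 to 2.46 CPM, or 5 to 22 UMIs per library. Microglia-like cells had higher levels than Müller-like cells in 5 of the 6 libraries, so Dkk2 in Müller-like cells did not stand above that background.

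Sfrp1, which binds Wnt proteins and Frizzled receptors, was low in Müller-like cells labelled miR-124 or triple combination. Its level was 235 CPM (227 to 244) with miR-25 mimic, 187 CPM (178 to 196) with let-7 antagomiR, 244 CPM (231 to 257) in the double combination, 66.3 CPM (58.0 to 75.4) labelled miR-124, 58.6 CPM (53.7 to 63.8) labelled triple combination and 236 CPM (223 to 249) in the control. The intervals of the miR-25 mimic, double combination and control libraries overlapped, as did those of the 2 lowest libraries, and let-7 antagomiR lay between. The ratio was 0.281 (0.243 to 0.323) labelled miR-124 against control, a log2 ratio of -1.76. The library labelled triple combination against the double combination had a ratio of 0.240 (0.217 to 0.266), a log2 ratio of -1.97. Thinned shares of Müller-like cells with a Sfrp1 UMI were 9.42% labelled miR-124 and 6.82% labelled triple combination, against 25.3% to 34.0% in the other 4 libraries (unthinned, 12.7% in both, against 44.9% to 48.8%). Microglia-like cells had thinned shares of 0% to 3.09%.

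Sfrp1 differed between the Müller-like clusters. In the Lcn2-led cluster it was still lowest labelled miR-124 and labelled triple combination, by less than over all Müller-like cells. The Rlbp1 and Car14-led cluster held most Müller-like cells of those 2 libraries. It had 9.61 CPM (5.69 to 15.2) labelled miR-124 and 16.6 CPM (13.6 to 19.99) labelled triple combination. Microglia-like cells had 1.42 to 7.10 CPM, a range that the interval labelled miR-124 reaches and that labelled triple combination lies above. Within the Grem1-led cluster the 6 libraries stood at 296 CPM with miR-25 mimic, 267 CPM with let-7 antagomiR, 292 CPM in the double combination, 258 CPM labelled miR-124, 369 CPM labelled triple combination and 364 CPM in the control. There the library labelled triple combination had a log2 ratio of 0.33 to the double combination and 0.02 to control. The Lcn2-led cluster had 211 CPM with miR-25 mimic, 125 CPM with let-7 antagomiR, 163 CPM in the double combination, 83.6 CPM labelled miR-124, 113 CPM labelled triple combination and 160.5 CPM in the control. Its log2 ratios were -0.90 labelled miR-124 against control and -0.51 labelled triple combination against the double combination. The cluster mix and the label cannot be told apart in the values over all Müller-like cells.

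**Figure D4:**
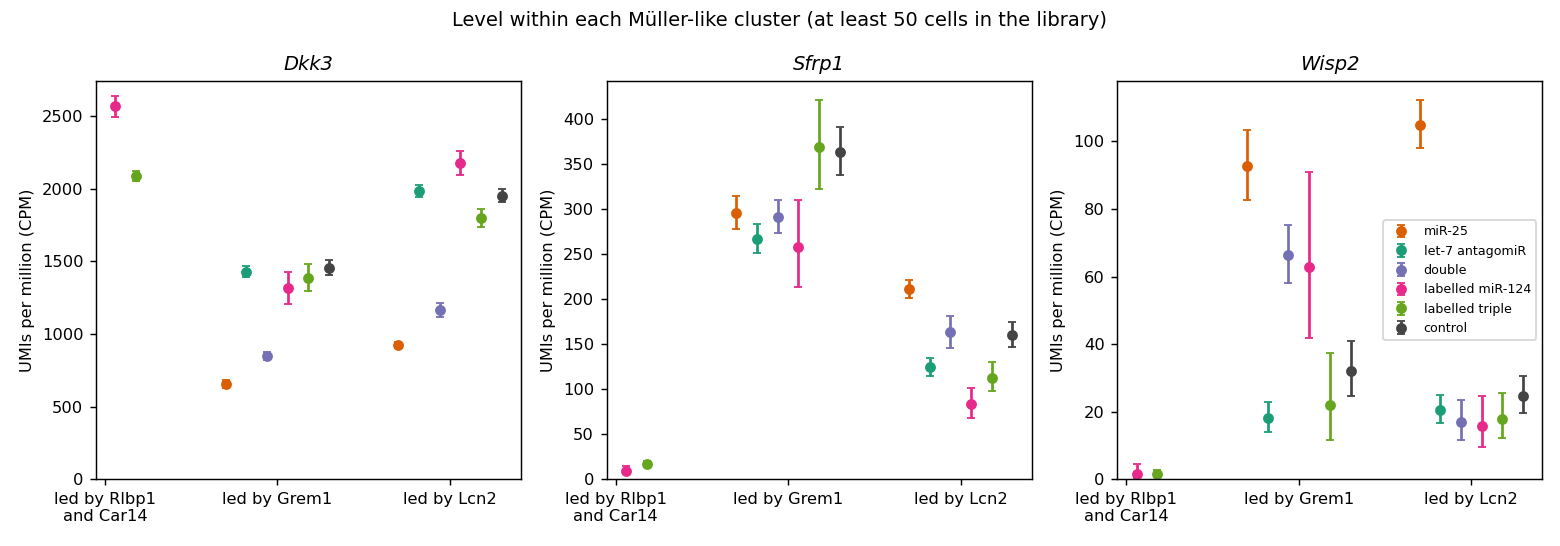
Level (CPM) of Dkk3, Sfrp1 and Wisp2 within each of the 3 Müller-like clusters and 6 libraries, where a cluster had at least 50 cells. Sfrp1 stands at 9.61 and 16.6 CPM in the Rlbp1 and Car14-led cluster and at 258 to 369 CPM in the Grem1-led cluster, and Dkk3 is lower with miR-25 mimic than in the control within both the Grem1-led and Lcn2-led clusters.

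In astrocyte-like cells Sfrp1 was again lowest labelled miR-124 and labelled triple combination, with log2 ratios to control of -1.07 and -1.27. In fibroblast-like cells these libraries were not the lowest. Astrocyte-like cells had 193 CPM with miR-25 mimic, 152 CPM with let-7 antagomiR, 125 CPM in the double combination, 81.4 CPM labelled miR-124, 70.3 CPM labelled triple combination and 176 CPM in the control. Fibroblast-like cells had 58.9 CPM with miR-25 mimic, 52.2 CPM with let-7 antagomiR, 83.5 CPM in the double combination, 82.4 CPM labelled miR-124, 88.3 CPM labelled triple combination and 32.4 CPM in the control. The control was thus among the higher libraries in astrocyte-like and Müller-like cells and the lowest in fibroblast-like cells.

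Sfrp2 and Sfrp5, the other secreted Frizzled-related proteins, were scarcely counted. Sfrp2 in fibroblast-like cells had 1.08 CPM (5 UMIs) with miR-25 mimic, 7.67 CPM (45 UMIs) with let-7 antagomiR, 9.35 CPM (27 UMIs) in the double combination, 11.4 CPM (67 UMIs) labelled miR-124, 11.6 CPM (78 UMIs) labelled triple combination and 1.91 CPM (21 UMIs) in the control. Those UMIs lay in 1 of the fibroblast-like clusters, and microglia-like cells had 0 in every library. In CPM the miR-25 mimic and control libraries were lower than the other 4. The fibroblast-like UMIs came from 4 cells with miR-25 mimic, 21 with let-7 antagomiR and 9 in the double combination. They came from 42 cells labelled miR-124, 41 labelled triple combination and 15 in the control. Thinned shares were 0.75% (0.25% to 1.75%) in the double combination and 0.29% (0.11% to 0.64%) in the control, which overlap. The intervals with let-7 antagomiR, labelled miR-124 and labelled triple combination lay above that of the control. Sfrp5 had 2 UMIs in all kept cells, both in the library labelled triple combination. Wif1, the Wnt inhibitory factor, had 10 UMIs in all kept cells, 1 to 4 per library. A count of 0 in a library would allow 0.135 to 0.275 CPM over its kept cells (3 counts), so no difference in Sfrp5 or Wif1 was detectable at this depth.

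**Figure D5:**
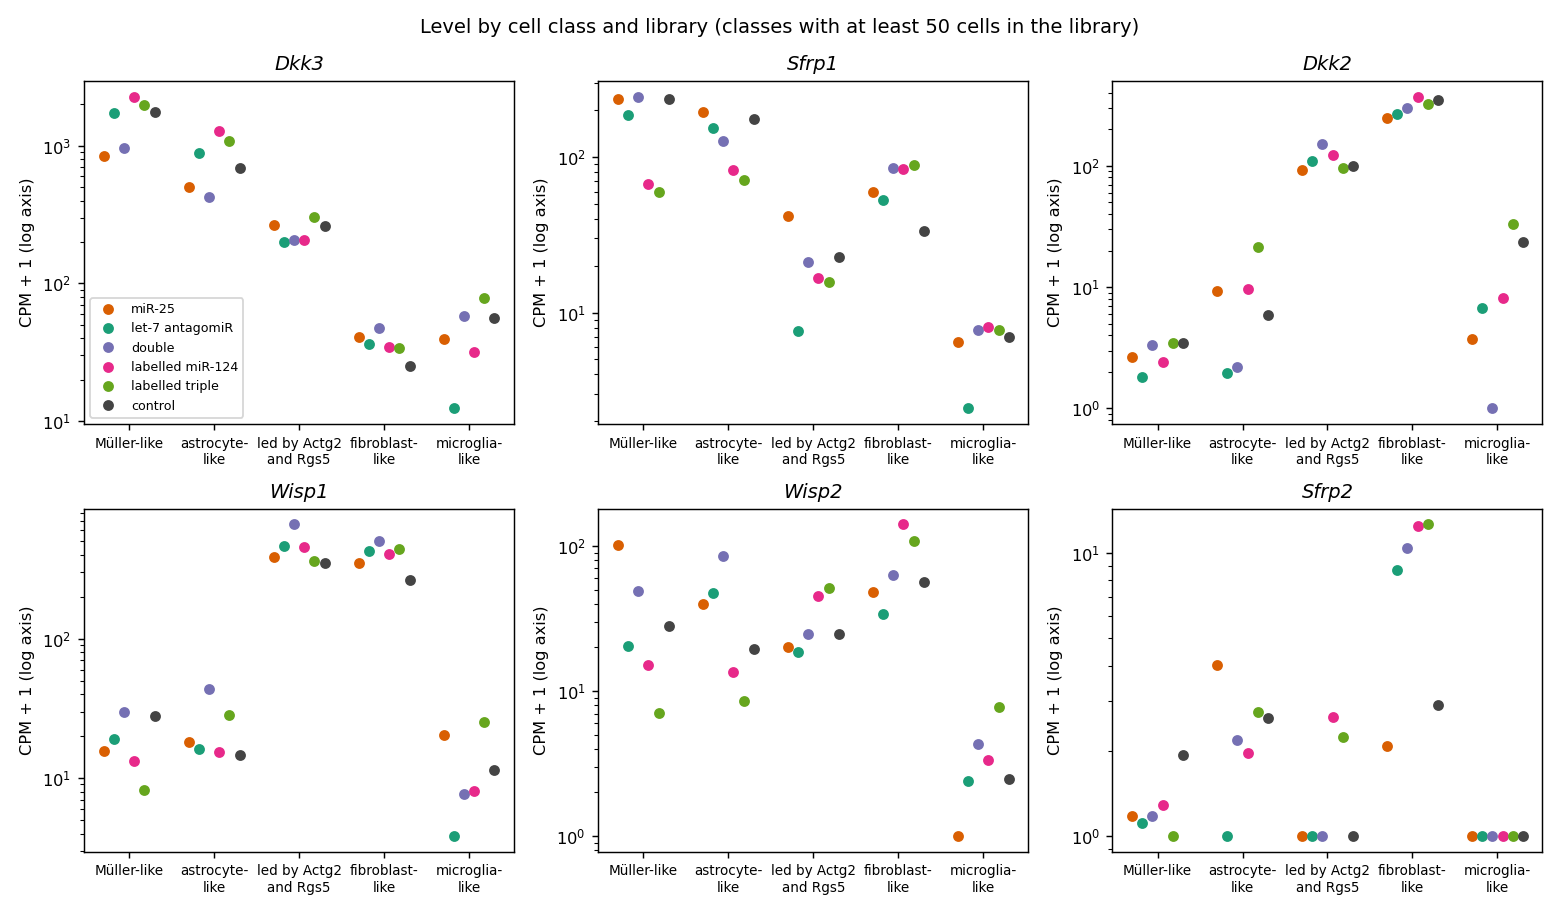
Level (CPM + 1, log axis) of Dkk3, Sfrp1, Dkk2, Wisp1, Wisp2 and Sfrp2 in 5 cell classes of the 6 libraries. Dkk3 is highest in Müller-like cells (846 to 2275 CPM), while Dkk2 (248 to 370 CPM) and Wisp1 (265 to 500 CPM) are high in fibroblast-like cells and low in Müller-like cells.

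Wisp2 (also called Ccn5), a CCN protein that lacks the C-terminal domain of its relatives, was higher in Müller-like cells with miR-25 mimic and came from a minority of cells. Its level was 101 CPM (95.2 to 107) with miR-25 mimic, 19.5 CPM (16.6 to 22.6) with let-7 antagomiR, 48.0 CPM (42.4 to 54.1) in the double combination, 14.2 CPM (10.6 to 18.8) labelled miR-124, 6.03 CPM (4.53 to 7.87) labelled triple combination and 27.3 CPM (23.0 to 32.1) in the control. The let-7 antagomiR library overlapped in its interval with the library labelled miR-124, and the other neighbours were apart by more than counting error. The ratio was 3.70 (3.11 to 4.43) with miR-25 mimic against control, a log2 ratio of 1.71, and 2.47 (2.03 to 3.01) in the double combination against let-7 antagomiR, a log2 ratio of 1.11. Microglia-like cells had 0 to 6.72 CPM, which is where the library labelled triple combination stands.

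Thinned shares of Müller-like cells with a Wisp2 UMI were 12.1% with miR-25 mimic, 2.95% with let-7 antagomiR, 6.21% in the double combination, 1.51% labelled miR-124, 0.738% labelled triple combination and 4.44% of the control. Unthinned shares were 17.8% with miR-25 mimic, 6.43% with let-7 antagomiR, 10.9% in the double combination, 2.14% labelled miR-124, 1.71% labelled triple combination and 6.18% of the control. The thinned share of microglia-like cells with a Wisp2 UMI was 0% to 1.08% (unthinned, at most 2%), so the share labelled triple combination is at background. Cells with at least 2 Wisp2 UMIs numbered 253 with miR-25 mimic (8.72% of Müller-like cells), 48 in the double combination (3.52%) and 33 in the control (2.55%). The 5% of cells with the most Wisp2 held 58.3% of its UMIs with miR-25 mimic and 89.7% in the control. With a UMI in 6.18% of control cells, the top 5% must hold most of them there. These shares therefore do not compare how concentrated Wisp2 was. The highest cell had 13 UMIs in both libraries.

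The pair of contrasts for miR-25 did not give like values within clusters. In the Lcn2-led cluster Wisp2 had 105 CPM with miR-25 mimic and 24.6 CPM in the control, but 16.9 CPM in the double combination and 20.6 CPM with let-7 antagomiR, a log2 ratio of -0.22. In the Grem1-led cluster it had 92.6 CPM with miR-25 mimic and 32.1 CPM in the control. The level was 66.3 CPM in the double combination and 18.1 CPM with let-7 antagomiR, a log2 ratio of 1.63. The higher Wisp2 of the double combination was thus found in the Grem1-led cluster, which held 771 of its 1362 Müller-like cells against 559 of 1494 with let-7 antagomiR. In fibroblast-like cells Wisp2 was at 47.5 CPM with miR-25 mimic, 32.9 CPM with let-7 antagomiR, 62.0 CPM in the double combination, 139.9 CPM (131 to 150) labelled miR-124, 107 CPM (98.9 to 115) labelled triple combination and 55.7 CPM (51.3 to 60.3) in the control. The fibroblast-like order was therefore another, with the highest levels in the 2 libraries that were lowest in Müller-like cells.

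The summed level of 14 fibroblast markers in Müller-like cells was 137 CPM with miR-25 mimic, 127 CPM with let-7 antagomiR, 210 CPM in the double combination, 176 CPM labelled miR-124, 137 CPM labelled triple combination and 165 CPM in the control, and at most 3 of the markers were at 0. The summed level of 11 pericyte or smooth muscle markers in Müller-like cells was 3740 CPM with miR-25 mimic, 4927 CPM with let-7 antagomiR, 6203 CPM in the double combination, 2068 CPM labelled miR-124, 1195 CPM labelled triple combination and 4341 CPM in the control, with at most 2 of the markers at 0. In microglia-like cells the fibroblast markers summed to 67.9 CPM with let-7 antagomiR, the lowest, and 994 CPM with miR-25 mimic, the highest. The pericyte or smooth muscle markers summed there to 109 CPM with let-7 antagomiR, the lowest, and 1075 CPM in the control, the highest. Whether microglia-like levels hold free RNA alone was not tested. The part of either list in the Müller-like values of Wisp1 and Wisp2 was not tested.

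Wisp1 (Ccn4), a CCN protein described as a Wnt1 target, belonged to the fibroblast-like and the Actg2 and Rgs5-led cells. Fibroblast-like cells had 346 CPM with miR-25 mimic, 426 CPM with let-7 antagomiR, 500 CPM in the double combination, 402 CPM labelled miR-124, 441 CPM labelled triple combination and 265 CPM in the control. Actg2 and Rgs5-led cells had 383 CPM with miR-25 mimic, 466 CPM with let-7 antagomiR, 662 CPM in the double combination, 455 CPM labelled miR-124, 363 CPM labelled triple combination and 347 CPM in the control. The double combination was the highest and the control the lowest in both classes. In Müller-like cells Wisp1 had 14.6 CPM with miR-25 mimic, 18.0 CPM with let-7 antagomiR, 28.8 CPM in the double combination, 12.2 CPM labelled miR-124, 7.26 CPM labelled triple combination and 27.1 CPM in the control. Microglia-like cells had 2.83 CPM with let-7 antagomiR, the lowest, to 24.2 CPM labelled triple combination, the highest. Their median over the 6 libraries was 8.77 CPM. Müller-like Wisp1 thus lay below the microglia-like level labelled triple combination and above it with let-7 antagomiR. In the double combination and the control it stood above the highest microglia-like value. Ratios of Wisp1 in Müller-like cells are given as values only. The log2 ratios were -0.71 with miR-25 mimic against control, 0.56 in the double combination against let-7 antagomiR, -0.90 labelled miR-124 against control and -1.46 labelled triple combination against the double combination.

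The number of these genes past 1.5-fold in Müller-like cells is read against all genes of the contrast. With miR-25 mimic against control, Dkk3 and Wisp1 were lower and Wisp2 higher, and 2.44% of all genes were past the fold. In the double combination against let-7 antagomiR these were Dkk3 and Wisp2, with 6.25% of all genes. None was past the fold with let-7 antagomiR against control (1.76% of all genes), and Wisp1 and Wisp2 were in the double combination against miR-25 mimic (5.8%). Sfrp1, Wisp1 and Wisp2 were lower labelled miR-124 against control (14.9%), but over all kept cells the log2 ratios of Wisp1 and Wisp2 there were 0.40 and 0.78, and that of Wisp2 was also above 0 in Grem1-led cells alone (0.87), without the Rlbp1 and Car14-led cluster (0.053) and with at most 5% mitochondrial UMIs (0.62). These 3 were lower and Dkk3 higher labelled triple combination against the double combination (31.7%). Against control, Dkk3 and Wisp2 were past the fold in the double combination (8.29%) and Sfrp1, Wisp1 and Wisp2 labelled triple combination (20.2%), with values near 0 over all kept cells for Dkk3 in the double combination (0.053) and for Wisp1 and Wisp2 labelled triple combination (0.064 and 0.094). Labelled triple combination against labelled miR-124, Wisp2 was lower (5.08%). The 8 genes were chosen with earlier results of these data known, and 4 of them entered, partly through the library where they are high. These counts therefore describe the genes and support nothing more. Contrasts with control share the control library, and those with the double combination share that library.

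Other genes of the pathway gave the following counts. Of 97 further Wnt genes in 6 lists (ligands, receptors, intracellular components, feedback and target genes, other secreted modulators, other CCN genes), 39 passed the level filter. With miR-25 mimic against control 1 was at least 1.5-fold higher and 0 lower (all genes, 103 and 71 of 7121), with a median log2 ratio of -0.024 beside 0.030 for all genes. The double combination against let-7 antagomiR had 5 higher and 3 lower (all genes, 152 and 293), with a median of -0.0036 beside -0.0091 for all genes. For let-7 antagomiR against control 0 were higher and 2 lower (all genes, 76 and 49), with medians of 0.019 and 0.0082. In the double combination against miR-25 mimic 3 were higher and 3 lower (all genes, 147 and 266), with medians of -0.026 and -0.040. The library labelled miR-124 against control had 2 higher and 8 lower (all genes, 583 and 478), and labelled triple combination against the double combination 6 higher and 10 lower (all genes, 1306 and 953), with medians of -0.044 and 0.097 beside 0.047 and 0.073 for all genes. Values below are levels in Müller-like cells.

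Sostdc1, a secreted antagonist of Wnt and BMP signals, was the Wnt gene past the fold in both miR-25 contrasts. Its level was 52.3 CPM with miR-25 mimic and 28.4 CPM in the control. The level was 60.7 CPM in the double combination and 38.3 CPM with let-7 antagomiR. Ccnd1, a cyclin of the cell cycle's G1 phase and a known target of beta-catenin, was lower in both let-7 contrasts. It stood at 696 CPM with let-7 antagomiR and 1492 CPM in the control. It had 703 CPM in the double combination and 1111 CPM with miR-25 mimic. Within the Lcn2-led cluster Ccnd1 had 645 CPM with let-7 antagomiR and 1339 CPM in the control, and within the Grem1-led cluster 764 CPM and 1764 CPM, so it was lower within both.

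In both contrasts labelled for miR-124, Bambi, Ccnd1, Porcn, Ror1, Wls and Wnt9a were lower and Kremen1 was higher. Porcn, which attaches the lipid that Wnt proteins need for secretion, had 148 CPM labelled miR-124 and 299 CPM in the control. The level was 130 CPM labelled triple combination and 772 CPM in the double combination. Wls, the carrier that brings Wnt proteins to the cell surface, had 25.0 CPM labelled miR-124 and 43.8 CPM in the control. The level was 14.0 CPM labelled triple combination and 95.04 CPM in the double combination. Bambi, a pseudoreceptor that lowers BMP and TGF-beta signals, had 65.99 CPM labelled miR-124 and 136 CPM in the control. The level was 44.6 CPM labelled triple combination and 180 CPM in the double combination. Kremen1, a Dickkopf receptor, had 74.0 CPM labelled miR-124 and 30.8 CPM in the control. The level was 71.2 CPM labelled triple combination and 35.1 CPM in the double combination. As for Sfrp1, most of these Müller-like cells lay in another cluster than those they are set against. Within the Grem1-led cluster Ccnd1 was at 1380 CPM labelled miR-124 and 1764 CPM in the control, a smaller difference than over all Müller-like cells, and within the Lcn2-led cluster at 746 CPM labelled miR-124 and 1339 CPM in the control. Porcn in the Grem1-led cluster had 308 CPM labelled miR-124 and 350 CPM in the control, and in the Lcn2-led cluster 222 CPM labelled miR-124 and 269 CPM in the control. Ror1, a receptor for Wnt5a, had 18.8 to 20.8 CPM in the 2 libraries and 31.3 to 37.4 CPM in the other 4, and Wnt9a, a ligand, had 7.49 to 9.96 CPM and 21.5 to 30.1 CPM in the same sets.

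Core components and relatives had these levels. Ctnnb1, which encodes beta-catenin, stood between 197 and 245 CPM in the 6 libraries. Csnk1a1, a kinase of the beta-catenin destruction complex, stood between 308 and 357 CPM. Of the CCN relatives of Wisp1 and Wisp2, Cyr61 (Ccn1) had 549 to 633 CPM. Ctgf (Ccn2) had 69.8 CPM with miR-25 mimic, 88.9 CPM with let-7 antagomiR, 51.2 CPM in the double combination, 49.2 CPM labelled miR-124, 69.0 CPM labelled triple combination and 84.1 CPM in the control. Its log2 ratio was -0.74 in the double combination against let-7 antagomiR, -0.66 in the double combination against control and -0.72 labelled miR-124 against control. Wnt5a, a ligand of the beta-catenin-independent branch, had 23.6 to 33.6 CPM. Axin2, the widely used reporter of beta-catenin signalling, had 19.1 CPM (14.8 to 24.2) labelled miR-124, 10.1 to 13.7 CPM in the other 4 treated libraries and 10.9 CPM (8.28 to 14.1) in the control. Its log2 ratio labelled miR-124 against control was 0.60, from 67 UMIs and 58 UMIs, and it did not reach 20 CPM in any library, so it is in no count above.

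Genes with the most similar pattern were sought by Pearson's r of log2(CPM + 5) over 42 sums of a class and a library, which share libraries and are not independent. Dkk3 was closest to Trpm3 (r = 0.959), Six3 (0.952) and Spon1 (0.948). Dkk2 was closest to Col1a1 (0.970), Bicc1 (0.948) and Ednra (0.947), and Wisp1 to Postn (0.973), Phldb2 (0.967) and Zyx (0.961). Sfrp1 was closest to Pdrg1 (0.912), Plekha7 (0.898) and Scd2 (0.892). Wisp2 had the lowest leading values, with Cda (0.824), Sec61b (0.801) and Fam149a (0.780). These values mostly follow the classes in which a gene is counted.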

How the data were processed

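The authors deposited raw counts, 1 matrix of genes by cells of UMI counts for each of 6 libraries, prepared with the 10x V2 system per the labels' protocols. Cell Ranger 2, Seurat 2 and the mm10 genome are named per the submitters' processing notes, and how the authors filtered cells is not given in the sources used here. Free RNA was not removed. The deposited matrix of the double combination ended early: 5094879 of 8637523 entries were read, which filled 3014 of 5141 barcodes.

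Cells were kept that had 500 or more genes and mitochondrial UMIs of 10% or less. Scrublet, run per library in scanpy 1.11.5, marked 0.122% to 2.32% of cells as doublets, which were removed; in the miR-25 mimic library and the library labelled triple combination it marked under 0.5% and so did not work. Cells were clustered together (2000 variable genes, Leiden resolution 0.6, no integration). Clusters were named "-like" from marker lists, where at least 3 markers were 2-fold over the median cluster. A rebuilt name may differ from the study's.

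Counts were summed per class and library and scaled to CPM, and log2 ratios were taken of CPM + 5 over genes that reached 20 CPM in any library. With 1 library per treatment no test was made. Intervals are exact Poisson intervals, or conditional intervals for a ratio, and cover counting error only. The summing and calling step was tested on simulated data with known folds. The 8 genes and the lists were chosen with earlier results of these data known. All 8 are reported, and of the lists the 2 most abundant genes of each, Axin2, Ctnnb1, Wnt5a and those past 1.5-fold the same way in both contrasts of a pair that shares no library are named by rule, of which the text describes some. Alternatives changed scaling, pseudocount, level filter, cell filter, doublet removal, resolution, fold and the cells summed. The number of table columns of no sample was 0.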

Additional observations from a re-analysis of the deposited data

Results flagged for a closer look

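In the results below, 2 cell classes of the same libraries moved at least 1.5-fold in opposite directions in the same contrast. The difference between classes was not tested, since each class has 1 value per library. Each difference is the log2 ratio of the class that was higher minus that of the class that was lower.

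For Sfrp1 the difference was 2.98 between fibroblast-like cells (log2 ratio 1.22) and Müller-like cells (-1.76) labelled miR-124 against control, and 2.29 between fibroblast-like and astrocyte-like cells. Labelled triple combination against control, it was 3.24 between fibroblast-like and Müller-like cells and 2.58 between fibroblast-like and astrocyte-like cells. With let-7 antagomiR against control, it was 1.82 between fibroblast-like cells, at 52.2 CPM against 32.4 CPM, and Actg2 and Rgs5-led cells, at 6.62 CPM against 21.9 CPM.

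For Wisp1 it was 1.49 labelled miR-124 against control and 2.11 labelled triple combination against control, both between fibroblast-like and Müller-like cells. The Müller-like levels labelled miR-124 and triple combination lie within the range of microglia-like cells, and that of the control lies above it.

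Wisp2 gave the most such results. With let-7 antagomiR against control it was 1.81 between astrocyte-like cells (46.6 CPM against 18.6 CPM) and fibroblast-like cells (32.9 CPM against 55.7 CPM), and in the double combination against miR-25 mimic 2.03 between astrocyte-like and Müller-like cells. Labelled miR-124 against control it was 2.004 for fibroblast-like and 1.52 for Actg2 and Rgs5-led cells, each minus Müller-like cells. Labelled triple combination against control the same differences were 2.43 and 2.48. Labelled triple combination against the double combination they were 2.999 and 3.19, and minus astrocyte-like cells 3.57 and 3.77. The miR-124-labelled and triple-labelled libraries have most Müller-like cells in another cluster than the control. Without that cluster the Müller-like log2 ratio of Wisp2 labelled miR-124 against control was 0.053. In Grem1-led cells alone it was 0.87, from 120 cells labelled miR-124. In Lcn2-led cells alone Wisp2 was lower labelled miR-124, at 15.9 CPM, than in the control. For Sfrp1 labelled triple combination against control the log2 ratio was 0.022 in Grem1-led cells alone, while Sfrp1 was lower than control in Lcn2-led cells.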

How the results depend on the processing

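Of 201 alternatives to the 20 values past 1.5-fold, 187 kept the direction, 153 stayed past the fold and 14 turned; where a count or direction changed, the cause was not tested. The numbers of the 8 genes past the fold changed as follows, with the share of all genes past it under the same setting in brackets. With a pseudocount of 1 CPM, labelled triple combination against labelled miR-124 had 2 (7.04%). At 2-fold, there was 1 in the double combination against let-7 antagomiR (1.17%) and labelled miR-124 against control (4.51%), and 0 in the double combination against miR-25 mimic (0.969%) and against control (1.49%) and in labelled triple combination against labelled miR-124 (0.829%). Over all kept cells let-7 antagomiR against control had 3 (5.48%), the double combination against miR-25 mimic 1 (4.08%), labelled miR-124 against control 1 (4.92%) and labelled triple combination against the double combination 2 (13.2%). With at most 5% mitochondrial UMIs, the double combination against let-7 antagomiR (12.8%), let-7 antagomiR against control (12.4%) and the double combination against control (19.2%) had 1 each, and labelled triple combination against labelled miR-124 had 2 (25.9%). At resolution 1.0 the Müller-like cells left out the unnamed cluster of 2491 cells with Grem1 among its leading genes. The double combination against control there had 1 (10.3%), and labelled triple combination against labelled miR-124 had 0 (4.92%). Without the Rlbp1 and Car14-led cluster (chosen after seeing the data), labelled miR-124 against control (4.44%) and labelled triple combination against control (4.35%) had 1 each and labelled triple combination against labelled miR-124 had 0 (6.12%). Of the Wnt lists, without the level filter miR-25 mimic against control had 4 genes past the fold (1.46%) and labelled miR-124 against control 17 (8.07%). Over all kept cells the list counts were 10 for miR-25 mimic against control (10.7%), 3 in the double combination set against let-7 antagomiR (3.5%), 5 for let-7 antagomiR against control (5.48%), 6 labelled miR-124 against control (4.92%) and 10 labelled triple combination against control (11.2%).

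Log2 ratios that turned are these. Over all kept cells, labelled miR-124 against control, Wisp1 was 0.40 and Wisp2 0.78; labelled triple combination against control they were 0.064 and 0.094; and Dkk3 in the double combination against control was 0.053. With at most 5% mitochondrial UMIs Wisp2 labelled miR-124 against control was 0.62. In Lcn2-led cells alone Wisp2 was -0.22 in the double combination against let-7 antagomiR, -0.43 in the double combination against control, 0.068 labelled triple combination against the double combination and 0.14 labelled triple combination against labelled miR-124. In Grem1-led cells alone Wisp2 was 0.87 labelled miR-124 against control, and Sfrp1 labelled triple combination was 0.33 against the double combination and 0.022 against control. Without the Rlbp1 and Car14-led cluster Wisp2 labelled miR-124 against control was 0.053.

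No paired analysis was possible because each treatment had 1 library, and for the same reason there was no replicate to leave out. Depth limits Sfrp2, Sfrp5 and Wif1, and the background seen in microglia-like cells limits Wisp1 and Dkk2 in Müller-like cells.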
